A study of Mus with 6 samples.

Results

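The mitochondrial genome genes are the 37 genes carried by the small circular DNA of the mitochondrion: 2 ribosomal RNA (rRNA) genes, 13 protein genes and 22 transfer RNA (tRNA) genes. They were taken from the 55421 genes counted in each library by their Ensembl gene identifiers, and the rule used no measured value, although it was set with earlier results of these data known. The libraries came from C57BL/6 wild type mice given an age of 2 months in the labels and an older age in the methods, whose lens fiber cells were removed to model cataract surgery, leaving lens epithelial cells (LECs) attached to the lens capsule. Capsules were collected at 0 h post cataract surgery (PCS) or 6 h PCS, with no other treatment in either group, and each time point had 3 libraries made from pools of 5 capsules. Each mouse gave 1 eye to each time point according to the labels, whereas the methods describe independent animals, and which pools share mice is not stated, so the pools were compared as unpaired. The 0 h capsules had also been through surgery, so the comparison of 6 h with 0 h PCS measures the interval after fiber cell removal and has no unoperated lens.

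Mitochondrial DNA is transcribed from both of its strands as long precursors that cover many genes. The tRNAs punctuate these precursors, and enzymes that cut at the tRNA ends release the rRNAs and mRNAs between them. The rRNAs build the mitochondrial ribosome, which translates only the mitochondrial mRNAs, and their protein products are subunits of the respiratory chain and of ATP synthase. All other subunits, and every protein factor that transcribes, cuts, modifies or translates mitochondrial RNA, are encoded in the nucleus. In the lens, the epithelium and the young fiber cells hold mitochondria, while mature fiber cells have lost them.

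The genes lie close together, which matters for counting. In the RefSeq annotation of GRCm38, 35 of the 36 pairs of neighbouring mitochondrial genes overlap or are at most 5 bases apart, 9 of them overlap, and the tRNA genes are 59 to 75 bases long. A read pair that touches 2 genes is left uncounted as ambiguous in the counting mode used, so a tRNA gene between 2 longer genes can gain counts mainly from pairs that lie inside it. Symbols were at hand for 13 of the 37 genes: both rRNA genes, 9 protein genes and the tRNA genes mt-Ty and mt-Tp. The other protein genes are, as a set, mt-Co2, mt-Atp8, mt-Atp6 and mt-Co3, but the sources used here do not pair these 4 names with 4 identifiers.

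Mitochondrial RNA took a larger share of the gene counts at 6 h PCS than at 0 h PCS. Together the 37 genes held 4.71%, 5.07% and 4.84% of the gene counts in the 3 libraries at 0 h and 9.80%, 8.91% and 8.45% at 6 h PCS. All 6 h libraries were above all 0 h libraries, and the mean share was 1.86 times as high. Most of this RNA was rRNA. The 2 rRNA genes held 3.90%, 4.22% and 3.99% at 0 h and 8.66%, 7.69% and 7.27% at 6 h PCS, a mean of 4.04% ± 0.166 against 7.87% ± 0.714 (SD, n = 3), which is 1.95 times as high. The 13 protein genes held 0.808%, 0.852% and 0.852% at 0 h and 1.14%, 1.22% and 1.18% at 6 h PCS, a mean of 0.837% ± 0.0256 against 1.18% ± 0.0393 (SD, n = 3), which is 1.41 times as high. For both classes the groups did not overlap, and the gap between the means was larger than the spread between libraries. The 22 tRNA genes held only 195, 157 and 184 counts at 0 h and 244, 258 and 269 counts at 6 h PCS. Here too the groups were apart, although these totals rest mainly on 1 gene. A permutation test of 3 libraries against 3 cannot go below p = 0.1, so no test of these shares was made.

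**Figure D1:**
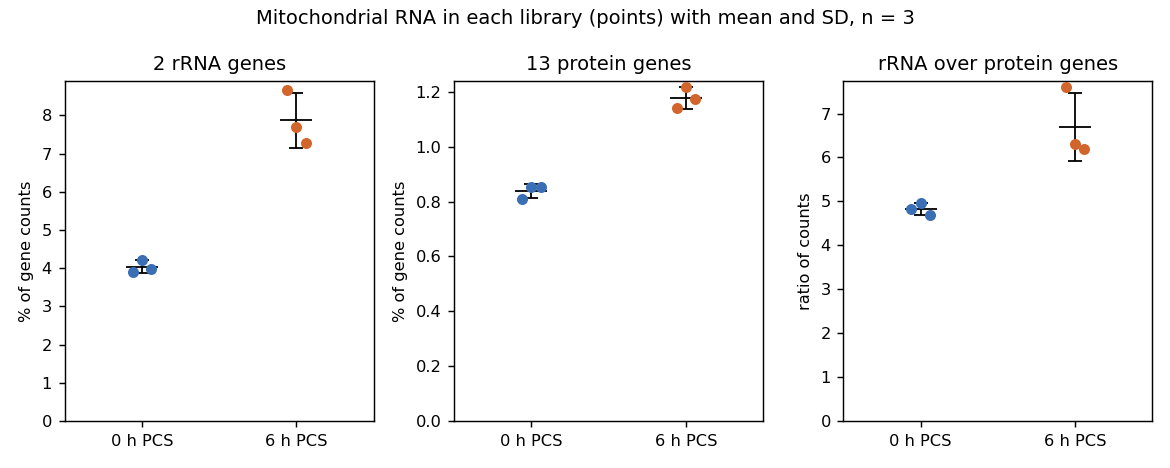
Share of each library's gene counts on the 2 mitochondrial rRNA genes (left) and the 13 mitochondrial protein genes (middle), in percent, and the ratio of rRNA counts to protein gene counts (right), at 0 h and 6 h PCS. Points are libraries, lines are the mean and SD of 3 libraries, and in all 3 panels the 6 h libraries lie above the 0 h libraries, with rRNA shares from 3.90% to 4.22% at 0 h and from 7.27% to 8.66% at 6 h PCS.

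The groups were then compared gene by gene with the quasi-likelihood F-test of edgeR over all 16810 genes that passed its filter on low counts, with the false discovery rate (FDR) of Benjamini and Hochberg and a limit of 0.05. A gene also needed a fold change above 2 to be a differentially expressed gene (DEG). Of the mitochondrial genome genes, 16 passed the filter: 2 rRNA, 10 protein and 4 tRNA genes. At 6 h PCS, 10 of the 16 were higher and 0 were lower at the FDR limit, against 6.31% of all genes tested that were higher and 2.02% that were lower, or 8.33% in either direction. At an unadjusted p of at most 0.05, 12 were higher and 0 lower, and DESeq2 and the exact test of edgeR also had 0 lower. The 10 were both rRNA genes, 7 protein genes and the tRNA gene mt-Ty. Without the first 0 h library 4 of them were past the limit, namely mt-Rnr1, mt-Rnr2, mt-Co1 and mt-Nd4, and for the others the FDR was then 0.0508 to 0.0888. The 3 DEGs were the 2 rRNA genes and mt-Ty, against 4.53% of all genes tested that were DEGs with higher levels at 6 h PCS and 5.35% that were DEGs in either direction. In 13 of the 16 genes all 6 h libraries were above all 0 h libraries, against 15.3% of all genes tested. The median log2 fold change of the 16 genes was 0.81, beside -0.0030 for all genes tested. Fold changes are given at 6 h over 0 h PCS.

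The library scaling bears on these counts. Levels are given as counts per 1000000 after scaling by the trimmed mean of M values (TMM), which sets most genes to no change, or as fragments per kilobase and per 1000000 gene counts (FPKM), which use the plain gene totals. The TMM factors were 1.09 to 1.15 at 0 h and 0.827 to 0.990 at 6 h PCS. With scaling on library size alone the median of all genes tested moved to -0.32, and 6 mitochondrial genes were past the FDR limit in place of 10. They kept the direction they had with TMM, and so did the other 4. Of all DEGs, 762 were higher and 138 lower at 6 h PCS with TMM, and 572 were higher and 627 lower with library size alone. As the RNA is bulk RNA, fewer cells of a type and less RNA per cell cannot be told apart.

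The 2 rRNAs had the largest changes past the FDR limit among the members. mt-Rnr1, the RNA of the small subunit of the mitochondrial ribosome (chromosome MT, 70 to 1024), had 9703, 10711 and 9448 CPM at 0 h and 28483, 21947 and 22608 CPM at 6 h PCS. Every 6 h library was far above every 0 h library. The log2 fold change was 1.29 (SE 0.164, FDR = 0.00155), or 0.97 with scaling on library size alone. mt-Rnr2, the RNA of the large subunit (chromosome MT, 1094 to 2675), had 26080, 27286 and 25422 CPM at 0 h and 76414, 55809 and 60392 CPM at 6 h PCS. Again the groups were far apart, and the first 6 h library was the highest of all. The log2 fold change of mt-Rnr2 was 1.29 (SE 0.171, FDR = 0.00187), or 0.96 with library size alone. Both rRNA genes stayed past the FDR limit when any 1 library was left out. On library size alone their fold changes fell just under 2, so neither was a DEG with that scaling.

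The rRNA genes were the most abundant members at both times. Per length, mt-Rnr2 had 18508 ± 605 FPKM at 0 h and 36069 ± 3386 FPKM at 6 h PCS, and mt-Rnr1 had 11619 ± 739 FPKM and 22696 ± 1946 FPKM (SD, n = 3). The ratio of the large to the small subunit rRNA in FPKM was 1.62, 1.54 and 1.62 at 0 h and 1.62, 1.54 and 1.61 at 6 h PCS. The groups overlapped completely in this ratio, so both rRNAs changed by about the same factor. The 2 genes are neighbours on the same precursor, separated by 1 tRNA gene.

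Of the 13 protein genes, the 7 that were higher at 6 h PCS held 99.9% of the protein gene counts in every library. These genes encode 5 subunits of complex I, the NADH dehydrogenase that feeds electrons into the respiratory chain, 1 subunit of complex III and 1 subunit of complex IV. Their log2 fold changes lay between 0.70 and 0.95 (folds of 1.63 to 1.93, FDR from 0.00285 to 0.0104), so each was past the FDR limit and none was a DEG. These fold changes lay between the 82.3 and 87.4 percentiles of all genes tested. The spread between libraries of a group was small, with coefficients of variation of 0.848% to 13.1%.

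mt-Co1, the catalytic subunit of cytochrome c oxidase or complex IV (chromosome MT, 5328 to 6872), had the largest fold change of these 7 mRNAs. It had 1805, 1925 and 1774 CPM at 0 h and 3762, 3320 and 3551 CPM at 6 h PCS. No 6 h library came near the 0 h range. Its log2 fold change was 0.95 (SE 0.136, FDR = 0.00285), and it was also past the FDR limit with library size alone (log2 fold change 0.63, FDR = 0.0181). mt-Cytb, the cytochrome b subunit of complex III and the only subunit of that complex encoded in the mitochondrion (chromosome MT, 14145 to 15288), had 1561, 1631 and 1644 CPM at 0 h and 2850, 2553 and 2772 CPM at 6 h PCS. The groups were apart, and the log2 fold change of mt-Cytb was 0.76 (SE 0.133, FDR = 0.00803). With library size alone it was 0.44 and missed the limit (FDR = 0.0612).

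The complex I genes moved by similar amounts, with log2 fold changes from 0.70 to 0.82. mt-Nd1 (chromosome MT, 2751 to 3707), a membrane subunit next to the quinone site, had 1207, 1208 and 1190 CPM at 0 h and 2040, 1816 and 2021 CPM at 6 h PCS. This gene varied least between libraries at 0 h PCS, and its groups were apart. Its log2 fold change was the smallest of the 7, at 0.70 (SE 0.132, FDR = 0.0104), and with library size alone it was 0.39 and missed the limit (FDR = 0.0844), as it also did without the first or the third 0 h library (FDR = 0.0734 and 0.0573). mt-Nd2, mt-Nd4 and mt-Nd5 encode the antiporter-like subunits of the membrane arm, through which protons are pumped. mt-Nd2 (chromosome MT, 3914 to 4951) had 555, 547 and 573 CPM at 0 h and 975, 862 and 974 CPM at 6 h PCS, a log2 fold change of 0.75 (SE 0.130, FDR = 0.00767) that missed the limit with library size alone (0.43, FDR = 0.0623). mt-Nd4 (chromosome MT, 10167 to 11544) had 571, 576 and 584 CPM at 0 h and 1059, 938 and 991 CPM at 6 h PCS, a log2 fold change of 0.79 (SE 0.128, FDR = 0.00542). mt-Nd5 (chromosome MT, 11742 to 13565) had 1569, 1633 and 1528 CPM at 0 h and 2836, 2617 and 2841 CPM at 6 h PCS, a log2 fold change of 0.81 (SE 0.132, FDR = 0.00555). In all 3 genes the lowest 6 h library was well above the highest 0 h library.

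mt-Nd6 (chromosome MT, 13552 to 14070) is the only mRNA gene of the light strand and encodes another membrane subunit of complex I. It had 135, 140 and 152 CPM at 0 h and 280, 215 and 256 CPM at 6 h PCS. The groups were apart, and in CPM the coefficient of variation at 6 h PCS, 13.1%, was larger than for the other 6 abundant mRNAs. The log2 fold change of mt-Nd6 was 0.82 (SE 0.143, FDR = 0.00789), the largest of the 5 complex I genes and close to that of mt-Nd5. Its gene overlaps mt-Nd5 on the opposite strand by 14 bases, and the strand setting of the counting is not stated. If the counting ignored strand, reads of mt-Nd6 and reads of RNA antisense to it could not be told apart.

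**Figure D2:**
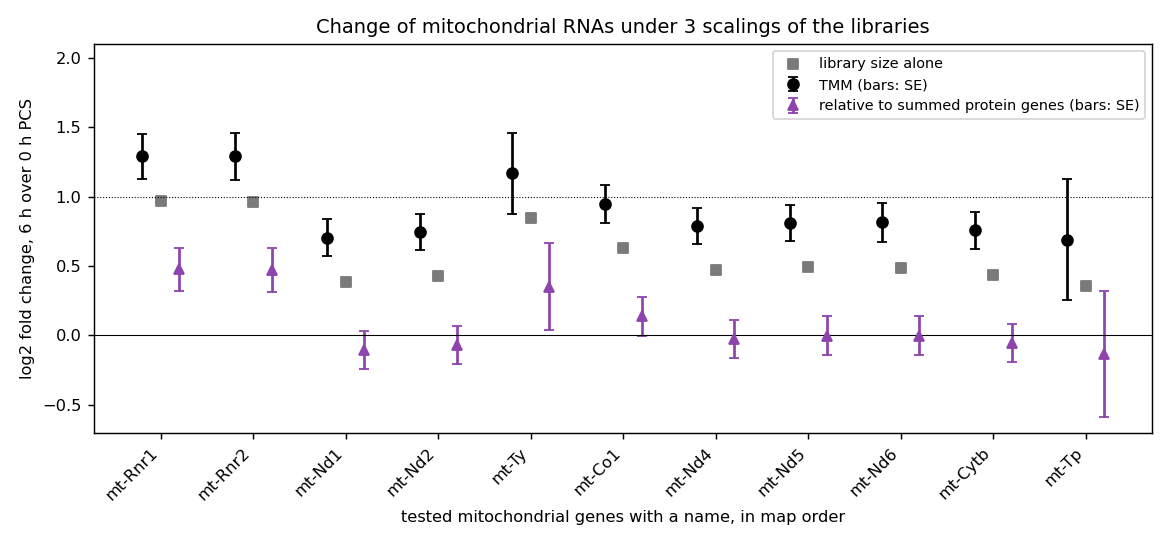
Log2 fold change at 6 h over 0 h PCS (vertical axis) of the 11 tested mitochondrial genes that have a symbol, in map order, under 3 scalings. Black points with SE bars are TMM, grey squares are library size alone, purple triangles with SE bars are relative to the summed mitochondrial protein genes, and the dotted line marks a fold change of 2. The 2 rRNA genes lie at 1.29 with TMM and at 0.48 and 0.47 relative to the protein genes, while the 7 mRNAs lie between -0.11 and 0.14 on that last scale.

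Per length, the order of the mRNAs changed at 1 place between the 2 times. At 0 h PCS it ran from mt-Cytb (1572 ± 79.2 FPKM) over mt-Nd1 (1400 ± 23.7 FPKM), mt-Co1 (1324 ± 56.0 FPKM), mt-Nd5 (964 ± 28.7 FPKM), mt-Nd2 (600.1 ± 27.1 FPKM) and mt-Nd4 (467 ± 16.5 FPKM) to mt-Nd6 (306 ± 26.5 FPKM) (SD, n = 3). Of these neighbours, mt-Nd1 and mt-Co1 overlapped in their ranges over libraries, although mt-Nd1 was the higher gene in each of the 3 libraries. At 6 h PCS mt-Co1 (2049 ± 64.8 FPKM) was above mt-Nd1 (1829 ± 60.4 FPKM) in each of the 3 libraries, and their ranges no longer overlapped. mt-Cytb stayed the highest mRNA at 6 h PCS (2129 ± 74.5 FPKM), with a range that overlapped that of mt-Co1. The remaining mRNAs followed in the same order as at 0 h PCS, with mt-Nd5 at 1356 ± 67.5 FPKM, mt-Nd2 at 806 ± 26.5 FPKM, mt-Nd4 at 646 ± 23.8 FPKM and mt-Nd6 at 429 ± 17.9 FPKM. The most and the least abundant of these 7 mRNAs thus differed several-fold at both times, and the rRNAs stood well above them.

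**Figure D3:**
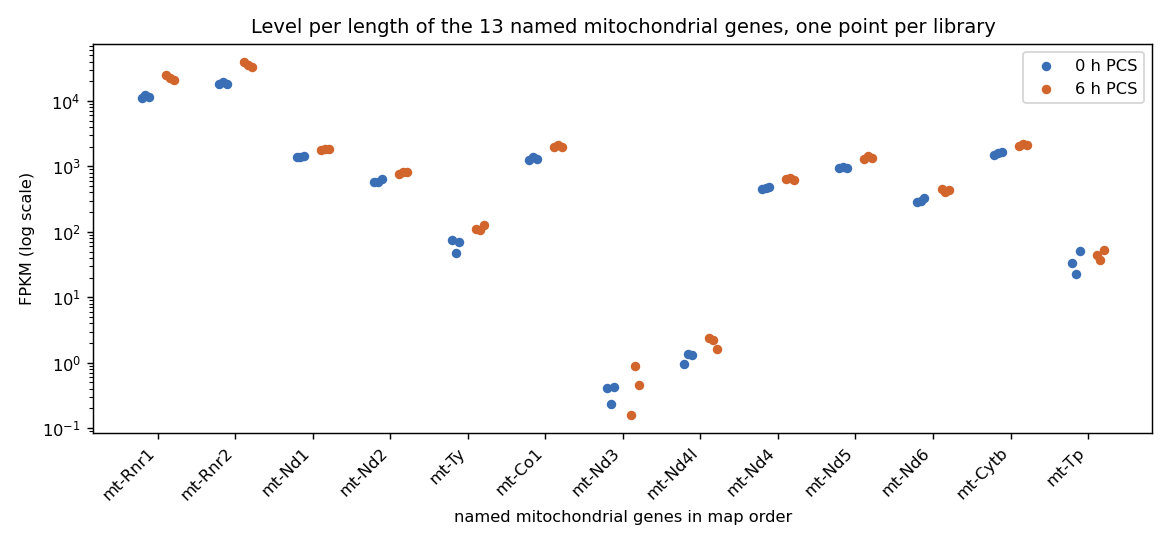
Level per length (FPKM, log scale) of the 13 mitochondrial genes that have a symbol, in map order, with 1 point per library at 0 h PCS (blue) and 6 h PCS (orange). The 2 rRNA genes lie at 11077 FPKM and above, the 7 abundant mRNAs between 283 and 2206 FPKM, the tRNA genes mt-Ty and mt-Tp between 23.0 and 127 FPKM, and mt-Nd3 and mt-Nd4l below 2.43 FPKM.

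The make-up of the protein gene counts, which does not depend on the library scaling, moved by small amounts. mt-Co1 took 24.4%, 25.1% and 23.8% of these counts at 0 h and 27.2%, 26.9% and 26.5% at 6 h PCS. mt-Nd1 took 16.30%, 15.76% and 15.97% at 0 h and 14.8%, 14.7% and 15.1% at 6 h PCS. mt-Cytb took 21.1%, 21.3% and 22.1% at 0 h and 20.6%, 20.7% and 20.7% at 6 h PCS. The share of mt-Co1 was thus higher and the shares of mt-Nd1 and mt-Cytb lower in every 6 h library than in any 0 h library, while the shares of mt-Nd2, mt-Nd4, mt-Nd5 and mt-Nd6 overlapped between the groups. As these shares sum to a whole, a higher share of 1 gene lowers the others.

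**Figure D4:**
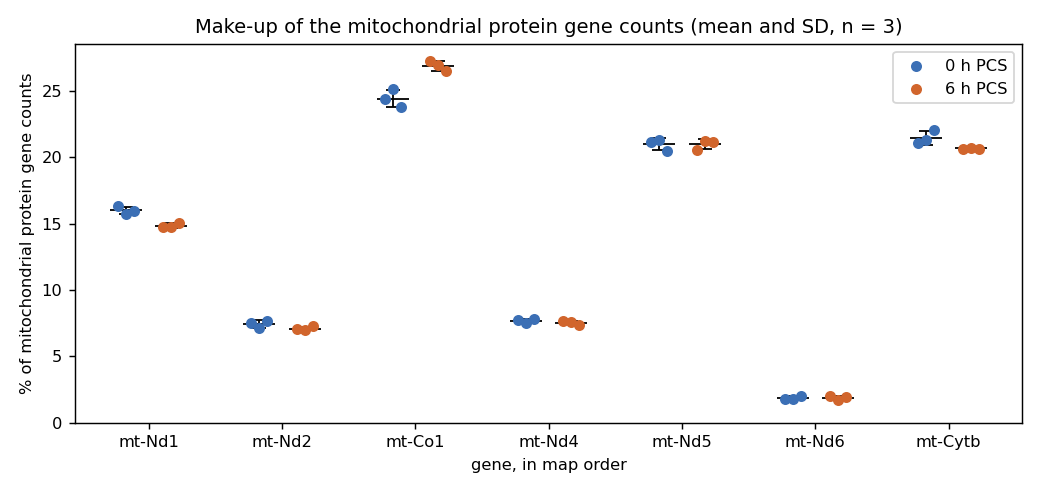
Share of the counts of the 13 mitochondrial protein genes (percent, vertical axis) taken by each of the 7 abundant mRNAs, in map order, at 0 h PCS (blue) and 6 h PCS (orange). Points are libraries, lines are the mean and SD of 3 libraries, and mt-Co1 shows the widest gap, from 23.8% to 25.1% at 0 h and from 26.5% to 27.2% at 6 h PCS.

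The rRNAs were compared with the mRNAs directly. Each library held 4.83, 4.96 and 4.68 rRNA counts per mitochondrial protein gene count at 0 h and 7.59, 6.31 and 6.19 at 6 h PCS, a mean of 4.82 ± 0.138 against 6.70 ± 0.781 (SD, n = 3). The ratio was higher in every 6 h library, by 1.39 times on average, and the first 6 h library stood above the other 6 h libraries. Without that library the ratio of the means was 1.30. The edgeR fit was repeated with the libraries scaled on their summed mitochondrial protein gene counts, so that a fold change is relative to the mRNAs as a whole. On this scale mt-Rnr1 had a log2 fold change of 0.48 (SE 0.156, FDR = 0.0240) and mt-Rnr2 one of 0.47 (SE 0.160, FDR = 0.0273). The counts on both rRNAs therefore rose more than those on the mRNAs. The fits that left out a library were not run on this scale. The 7 mRNAs lay between -0.11 and 0.14 on the same scale, with FDR from 0.435 to 0.994, and the median of all genes tested was -0.81. With that scaling, 3.15% of all genes tested were higher and 50% were lower at the FDR limit.

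The counts on rRNA can also follow how much rRNA was removed from each library, since the kit depletes rRNA. In the same libraries, 2 nuclear loci that collect reads of ribosomal sequence moved in the same direction. Gm26917 had 9893, 8611 and 9531 CPM at 0 h and 26112, 13425 and 17901 CPM at 6 h PCS, a log2 fold change of 1.03 (SE 0.230, FDR = 0.0225). Gm42418 had 4917, 4717 and 4398 CPM at 0 h and 11148, 6326 and 7935 CPM at 6 h PCS, a log2 fold change of 0.86 (SE 0.206, FDR = 0.0320). In both loci, as in mt-Rnr1 and mt-Rnr2, the first 6 h library was the highest of the 6 h libraries. In TMM CPM the second was the lowest for all 4, whereas in FPKM the third was the lowest for mt-Rnr1 and mt-Rnr2 and the second for both loci. Both calls on the nuclear loci were lost when any 0 h library was left out (FDR from 0.0710 to 0.125), and with library size alone Gm42418 missed the limit (0.52, FDR = 0.0635) while Gm26917 did not (0.69, FDR = 0.0339). The part of rRNA removal in the changes of the mitochondrial rRNAs was not tested.

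The other 6 protein genes had few counts. mt-Nd3 (chromosome MT, 9459 to 9806) and mt-Nd4l (chromosome MT, 9877 to 10173) encode small membrane subunits of complex I and lie next to each other, with 1 tRNA gene between them. mt-Nd3 had 3, 2 and 3 counts at 0 h and 1, 7 and 3 counts at 6 h PCS, and mt-Nd4l had 6, 10 and 8 counts at 0 h and 13, 15 and 9 counts at 6 h PCS. The raw counts of both overlapped between the groups, while after TMM scaling mt-Nd4l was higher in every 6 h library, and neither gene passed the filter. Their levels were 0.354 ± 0.106 and 1.21 ± 0.231 FPKM at 0 h and 0.503 ± 0.370 and 2.09 ± 0.435 FPKM at 6 h PCS (SD, n = 3), far below the other complex I mRNAs of the same precursor. The genes that are, as a set, mt-Co2, mt-Atp8, mt-Atp6 and mt-Co3 encode a core subunit of complex IV, both mitochondrial subunits of ATP synthase, and a further core subunit of complex IV. In identifier order, the first of these 4 had 36, 63 and 36 counts at 0 h and 48, 83 and 91 at 6 h PCS, and the second had 0, 0 and 3 counts and 0, 4 and 2 counts. The third had 36, 66 and 41 counts at 0 h and 78, 111 and 53 at 6 h PCS, and the fourth had 18, 18 and 29 counts and 14, 27 and 10 counts. In all 4 the raw counts of the groups overlapped, and after TMM scaling the first and the third were higher in every 6 h library. The filter passed 3 of the 4, with log2 fold changes from 0.05 to 1.23 and FDR from 0.0901 to 0.977, so 0 of them were past the limit with the test of edgeR. At an unadjusted p of at most 0.05, 2 of them were higher, and DESeq2 had these 2 past its limit, while the exact test of edgeR had 0.

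These 6 genes are neighbours on the map, between mt-Co1 and mt-Nd4, and a nuclear copy of mitochondrial DNA is annotated for part of that stretch. In the RefSeq annotation of GRCm38, Gm10925 (chromosome 1, 24613971 to 24614651) has the length of the ATP6 gene, 681 bases (chromosome MT, 7927 to 8607), and lists mt-Atp6 among its synonyms. Gm10222 (chromosome 1, 24612404 to 24612700) has the length of the ND4L gene, 297 bases (chromosome MT, 9877 to 10173). From the first to the second gene the copy spans 2248 bases on chromosome 1 and the original 2247 bases on chromosome MT, a stretch that holds 4 protein genes. A read pair that aligns equally well to both places is set aside by the counting program as not unique. Such pairs were 2.18%, 2.44% and 2.01% of all pairs at 0 h and 2.52%, 2.59% and 2.83% at 6 h PCS. They came from the whole genome, and how many belong to these 6 genes was not tested. No sequence was compared, and how far the copy extends beyond these 2 genes was not examined.

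A further annotated copy, Gm28438 (345 bases, on chromosome 1), had 19.0, 21.1 and 21.1 CPM at 0 h and 36.8, 34.7 and 37.4 CPM at 6 h PCS. Its groups were apart, and its log2 fold change of 0.83 (SE 0.148, FDR = 0.00847) was in the range of the mitochondrial mRNAs. This call was lost without the first 0 h library (FDR = 0.0583) and with library size alone (0.51, FDR = 0.0694). Gm10222 had 1.46, 1.71 and 1.55 CPM at 0 h and 3.09, 1.03 and 0.964 CPM at 6 h PCS, with overlapping groups and a log2 fold change of 0.09 (SE 0.592, FDR = 0.946). That value turned to -0.26 with library size alone and to -0.66 without the first 6 h library.

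Of the 22 tRNA genes, 12 had no count in any library, which allows up to 3 counts or 0.109 to 0.201 CPM per library, and covers counting error only. The filter passed 4 tRNA genes. mt-Ty, the tRNA for tyrosine (chromosome MT, 5260 to 5326), was the most abundant, with 107, 80 and 95 counts at 0 h and 136, 163 and 161 counts at 6 h PCS. After scaling these were 4.60, 2.91 and 4.10 CPM against 9.13, 7.33 and 9.70 CPM, with the groups apart. Its log2 fold change was 1.17 (SE 0.292, FDR = 0.0372), but it was past the limit in 0 of the 6 fits that left out 1 library (FDR from 0.0645 to 0.108), and it missed the limit with library size alone (0.85, FDR = 0.0825). Between mt-Ty, on the light strand, and mt-Co1, on the heavy strand, lies 1 base. mt-Tp, the tRNA for proline (chromosome MT, 15356 to 15422), had 47, 38 and 68 counts at 0 h and 54, 56 and 68 counts at 6 h PCS. Its scaled levels overlapped between the groups, and the log2 fold change of 0.69 (SE 0.436) had an FDR of 0.385. The other 2 tested tRNA genes had 5 to 31 counts per library and FDR of 0.498 and 0.683, and the 6 remaining genes had at most 15 counts. With so few counts a change in most tRNA genes was not detectable. Whether the counts on tRNA genes came from mature tRNAs or from precursors was not tested.

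Among the nuclear genes that work with the mitochondrial genome, some passed the test in each direction. For the nuclear subunits of the respiratory chain and ATP synthase, 14 of the 83 genes on the list had a symbol at hand, and all 14 were tested. At the FDR limit 0 were higher and 2 were lower at 6 h PCS, beside 6.31% and 2.02% of all genes tested (0 and 3 at an unadjusted p of at most 0.05, 0 and 2 with DESeq2 or the exact test of edgeR), and their median log2 fold change was -0.31, beside -0.0030 for all genes tested. Symbols were at hand mostly for genes in tables ordered by p-value, so these counts lean towards changed genes. Ndufc1, an accessory subunit of complex I, had 12.6, 13.8 and 11.1 CPM at 0 h and 6.04, 7.28 and 7.23 CPM at 6 h PCS, with the groups apart. It fell by 0.87 on the log2 scale (SE 0.223, FDR = 0.0418). Ndufs5, another accessory subunit of complex I, had 26.6, 25.1 and 25.3 CPM at 0 h and 12.1, 19.0 and 15.2 CPM at 6 h PCS, also with the groups apart. It fell by 0.73 on the log2 scale (SE 0.196, FDR = 0.0488). Both calls are near the limit: Ndufc1 was past it in 0 of the 6 fits that left out 1 library (FDR from 0.0729 to 0.150) and Ndufs5 only in the fit without the second 6 h library (FDR = 0.0416). In the same complex the 5 mitochondrial mRNAs with enough counts were all higher at 6 h PCS.

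In complexes III, IV and V 0 nuclear genes were past the limit with edgeR, by its exact test or with DESeq2, and at an unadjusted p of at most 0.05 only Atp5h was lower. With library size alone, Atp5h (-0.84, FDR = 0.0328) and Uqcrc2 (-0.64, FDR = 0.0472) were past the limit, and Atp5h was also past it without the low-count filter (FDR = 0.0131). The complex III subunit Uqcrc2 had a mean of 29.01 ± 1.602 CPM at 0 h and 23.2 ± 4.33 CPM at 6 h PCS (SD, n = 3, log2 fold change -0.32, FDR = 0.312). The complex IV subunits Cox4i1 (62.5 ± 5.02 against 59.6 ± 18.5 CPM, -0.07, FDR = 0.886) and Cox7a2 (12.0 ± 1.01 against 10.04 ± 4.61 CPM, -0.25, FDR = 0.713) overlapped between the groups, and without the first 6 h library their log2 fold changes were 0.15 and 0.08. The ATP synthase subunits Atp5h (130 ± 10.5 against 89.0 ± 23.9 CPM, -0.55, FDR = 0.128) and Atp5g2 (13.5 ± 1.47 against 11.3 ± 0.643 CPM, -0.26, FDR = 0.473) were lower in every 6 h library than in any 0 h library. These spreads leave room for changes in either direction for most of the genes. For the 4 subunits of complex II, which is nuclear throughout, no symbol was at hand.

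The proteins of the mitochondrial ribosome, which bind the 2 rRNAs, were covered by 20 genes with a symbol. Their median log2 fold change was -0.41, and in 13 of the 20 all 6 h libraries were below all 0 h libraries, against 15.3% of all genes tested. At the FDR limit of edgeR 0 were lower and 1 was higher, beside 2.02% and 6.31% of all genes tested, at an unadjusted p of at most 0.05 there were 6 and 1, and DESeq2 and the exact test of edgeR each had 1 lower. With library size alone 4 were lower and 0 higher. Mrps6, a protein of the small subunit, had 26.7, 16.6 and 19.2 CPM at 0 h and 50.7, 30.4 and 36.6 CPM at 6 h PCS, a log2 fold change of 0.91 (SE 0.237, FDR = 0.0438). Its call was lost with library size alone (0.58, FDR = 0.0901) and held in 1 of the 6 fits that left out 1 library, the one without the second 6 h library (FDR = 0.0432).

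Of the genes that transcribe, cut, modify and degrade mitochondrial RNA, 14 of the 49 on the list had a symbol and were tested, with 2 higher, 1 lower and a median log2 fold change of -0.31, beside 6.31% of all genes tested that were higher and 2.02% that were lower. As above, genes with a symbol lean towards changed genes, here and in the lists that follow. With library size alone 1 was higher and 3 were lower. Pde12, which removes poly(A) tails from mitochondrial RNA, had 15.9, 13.3 and 12.4 CPM at 0 h and 80.1, 55.7 and 64.9 CPM at 6 h PCS. Every 6 h library was several-fold above the 0 h range. Its log2 fold change of 2.27 (SE 0.184, FDR = 0.000212) was the largest of the list, and the call held in every fit that left out 1 library. Elac2, the nuclease that cuts the 3' ends of tRNAs from the precursors, had 13.9, 12.2 and 15.8 CPM at 0 h and 34.3, 22.7 and 23.0 CPM at 6 h PCS, a log2 fold change of 0.93 (SE 0.214, FDR = 0.0262). Its call was lost with library size alone (0.60, FDR = 0.0781), without any of the 0 h libraries or without the first 6 h library (FDR from 0.0542 to 0.108). Grsf1, an RNA-binding protein of mitochondrial RNA granules, had 45.003, 47.8 and 43.0 CPM at 0 h and 25.8, 31.3 and 26.8 CPM at 6 h PCS. It fell by 0.69 on the log2 scale (SE 0.147, FDR = 0.0179), with the groups apart, but missed the limit when any 0 h library was left out (FDR from 0.0515 to 0.0837). Of the genes for copying and transcribing mitochondrial DNA, 3 had a symbol and 0 were past the limit with edgeR, its exact test or DESeq2, while at an unadjusted p of at most 0.05 there were 2 lower and with library size alone Ssbp1 was past the limit (-0.92, FDR = 0.0242). Ssbp1, which coats single-stranded mitochondrial DNA, had 16.4 ± 2.30 against 10.8 ± 1.06 CPM (SD, n = 3, log2 fold change -0.60, FDR = 0.104), and Polg2, the accessory subunit of its polymerase, had 4.83 ± 1.10 against 7.53 ± 2.54 CPM (log2 fold change 0.64, FDR = 0.296). Primpol, a primase-polymerase, had 5.63 ± 1.92 against 2.71 ± 1.12 CPM (log2 fold change -1.04, FDR = 0.164), and its groups overlapped.

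Regulators that sit above mitochondrial gene expression were also examined. Of the 11 biogenesis regulators on the list, 4 had a symbol and 2 were higher at 6 h PCS, beside 6.31% of all genes tested, while DESeq2 and the exact test of edgeR had 3 higher and library size alone 0. The third gene was Myc, a growth-related transcription factor, with 35.0, 15.7 and 9.58 CPM at 0 h and 85.1, 59.9 and 132 CPM at 6 h PCS, a log2 fold change of 2.20 (SE 0.568, FDR = 0.0834). Its groups were apart, with a wide spread in both. Myc was past the limit of edgeR without robust estimation (FDR = 0.0209). It also passed without the first 0 h library (2.86, FDR = 0.00974), the only 1 of the 6 fits that left out a library to do so. Pprc1, a coactivator related to PGC-1 that responds to growth signals, had 36.3, 24.4 and 46.0 CPM at 0 h and 86.5, 60.4 and 67.9 CPM at 6 h PCS, a log2 fold change of 1.01 (SE 0.233, FDR = 0.0278). Ppard, a nuclear receptor that regulates fatty acid oxidation, had 15.1, 17.6 and 15.2 CPM at 0 h and 23.7, 28.2 and 32.8 CPM at 6 h PCS, a log2 fold change of 0.82 (SE 0.181, FDR = 0.0221). Both calls were lost with library size alone (FDR = 0.0612 and 0.117) and held in only 2 of the 6 fits that left out 1 library. Pprc1 missed the limit without the first or second 0 h library or the first or the third 6 h library (FDR from 0.0558 to 0.106), and Ppard without the first or the third 0 h library or the second or the third 6 h library (FDR from 0.0682 to 0.112). Of the 16 genes of the mitochondrial stress response, 5 had a symbol and 1 was higher, again beside 6.31% of all genes tested. Atf4, the transcription factor of the integrated stress response, had 110, 78.4 and 86.9 CPM at 0 h and 193, 182 and 217 CPM at 6 h PCS, a log2 fold change of 1.10 (SE 0.159, FDR = 0.00286).

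**Figure D5:**
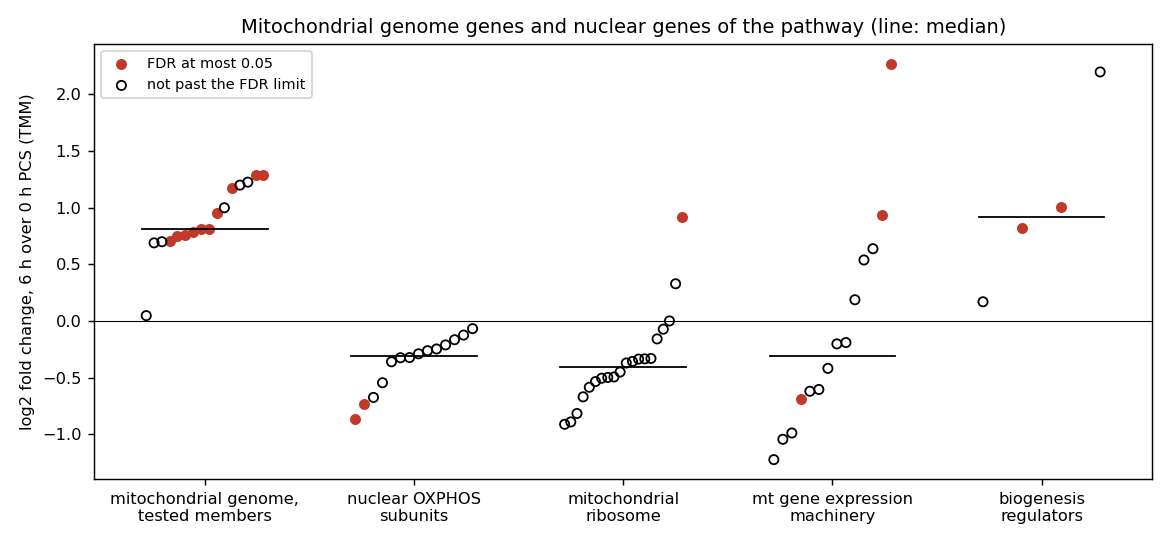
Log2 fold change at 6 h over 0 h PCS (vertical axis, TMM) of the 16 tested mitochondrial genome genes beside the tested nuclear genes with a symbol, which are 14 respiratory chain and ATP synthase subunits, 20 proteins of the mitochondrial ribosome, 14 genes of mitochondrial gene expression and 4 biogenesis regulators. Each point is a gene, filled red at an FDR of at most 0.05, horizontal lines are medians, and the median is 0.81 for the mitochondrial genome genes, -0.31 for the nuclear subunits and -0.41 for the ribosome proteins.

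The libraries held 18039974 to 24701039 gene counts. Read pairs without an alignment were 34.2% to 40.0% of the pairs at 0 h and 37.5% to 44.1% at 6 h PCS, and ambiguous pairs were 0.788% to 0.888% and 0.670% to 0.809%.

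Markers of the labelled cell type and of other cells were compared between the time points too. Of 6 tested LEC markers 1 was higher and 2 were lower at 6 h PCS, beside 6.31% and 2.02% of all genes tested. The receptor Epha2 rose (log2 fold change 1.21, FDR = 0.0134), and the lens transcription factors Pitx3 and Sox2 fell (-0.86 and -0.70, FDR = 0.00777 and 0.0151). Foxe3 (0.28, FDR = 0.249) and Gja1 (0.41, FDR = 0.260) were not past the limit, although Foxe3 was higher in every 6 h library. The sums of the LEC markers overlapped, at 1140 to 1346 CPM at 0 h and 1204 to 1417 CPM at 6 h PCS. Epha2 missed the limit without the third 0 h library (FDR = 0.0551), and Sox2 without the first or the third 0 h library (FDR = 0.0567 and 0.0679). Pax6, which defines the lens lineage, had 573 ± 90.3 CPM at 0 h and 402 ± 104 CPM at 6 h PCS (SD, n = 3, log2 fold change -0.51, FDR = 0.156), and was past the limit with library size alone (-0.85, FDR = 0.0153), relative to the mitochondrial protein genes (-1.33, FDR = 0.000465), without the low-count filter (FDR = 0.0144) and without the first 6 h library (-0.74, FDR = 0.0234). The lens fiber cell marker Crygb stood at 8.32, 7.87 and 253 CPM in the 6 h libraries against 104, 113 and 104 CPM at 0 h, so the third 6 h library decided its value of -0.26 (FDR = 0.943), which was -3.73 (FDR = 2.67e-05) without it.

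All 5 erythrocyte markers were DEGs that were higher at 6 h PCS, against 4.53% of all genes tested. Their summed levels were 7.94 to 19.5 CPM at 0 h and 73.5 to 133 CPM at 6 h PCS. Among them were Alas2 (log2 fold change 2.86, FDR = 0.00104), Hbb-bs (3.09, FDR = 0.00109) and Hba-a2 (2.83, FDR = 0.0165, but 0.0615 without the third 6 h library). The 7 leukocyte markers summed to 14.8 to 24.0 CPM and 23.4 to 52.0 CPM with 2 past the limit, Cd14 (3.91, FDR = 0.00409) and Cd68 (2.55, FDR = 0.0129, but 0.0671 without the first 0 h library and 0.0515 without the third 6 h library). The sums of the 4 pigment cell markers overlapped, but ran from 51.4 to 209 CPM at 0 h and from 77.4 to 1965 CPM at 6 h PCS. Dct, an enzyme of melanin synthesis, had 110, 32.9 and 28.1 CPM at 0 h and 50.3, 273 and 1164 CPM at 6 h PCS (log2 fold change 3.13, FDR = 0.275), and Tyrp1 had 43.4, 19.9 and 12.9 CPM and 14.8, 87.5 and 367 CPM (2.62, FDR = 0.325). The third 6 h library was the highest in both.

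The 2 detected corneal epithelium markers, Krt12 (4.23, FDR = 0.0792) and Krt5 (3.21, FDR = 0.146), summed to 0.765 to 14.7 CPM and 69.2 to 104 CPM, with 0 past the limit of edgeR and 2 past that of DESeq2 or of the exact test. Both were past the limit of edgeR without the first 0 h library (5.88 and 4.61, FDR = 0.00125 and 0.0359) or the second (FDR = 0.0475 and 0.0258). Both were also past it without robust estimation (FDR = 0.0114 and 0.0385). Krt12 passed it with the newer edgeR 4 form of the test (FDR = 0.0381) and relative to the mitochondrial protein genes (FDR = 0.0446). Endothelium markers summed to 4.10 to 26.3 CPM and 19.97 to 36.9 CPM (Kdr 0.75, FDR = 0.634, Pecam1 1.98, FDR = 0.0644), photoreceptor markers to 107 to 697 CPM and 324 to 768 CPM (Sag 0.61, FDR = 0.684, Pde6b 0.99, FDR = 0.552), and 2 muscle markers to 9.49 to 23.1 CPM and 25.8 to 171 CPM (Myh11 2.43, FDR = 0.199, Ckm -0.45, FDR = 0.685). With 1 library left out, Kdr ran from 0.29 to 1.80, Pecam1 from 1.54 to 2.35 and Sag from 0.18 to 1.53. Pde6b then ran from 0.54 to 2.00, Myh11 from 1.11 to 2.85 and Ckm from -0.90 to -0.14. For these lists and the pigment cells 0 markers were past the limit of edgeR (3 at an unadjusted p of at most 0.05), while DESeq2 had 2 endothelium markers and 1 muscle marker past it, the exact test 2 endothelium markers, and library size alone 1 endothelium marker. Mature erythrocytes have no mitochondria, but whether the erythrocyte markers came from mature cells was not tested. What part any of these cells had in the mitochondrial RNA was not tested.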

How the data were processed

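RNA from wild type LECs was sequenced in 6 libraries, 3 at 0 h PCS and 3 at 6 h PCS. RNA was extracted with the RNeasy Mini kit, and libraries were prepared with the SMARTer Stranded Pico v2 kit with ribodepletion, per the labels. The authors aligned read pairs to GRCm38 with HISAT2 and used HTSeq (union mode) to count them on Ensembl genes, and the deposited values are these raw counts, with 5 summary entries per library for pairs not assigned to a gene. The submitters' processing notes give the build as GRCm38.p6. The strand setting of the counting is not given in the sources used here.

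The comparison of 6 h with 0 h PCS was run on the counts as deposited in edgeR 4.0.16 (R 4.3.3, limma 3.58.1), with TMM factors, the low-count filter by group, robust dispersions and the quasi-likelihood F-test in its earlier form, as in the study's methods. The FDR was taken over all 16810 genes tested, and the SE of a log2 fold change was its size divided by the square root of F. Gene counts per library, 18039974 to 24701039, were the denominators of shares and of FPKM, with lengths from the study's supplementary table where given. DESeq2 1.42.0 was used as an alternative, and Python 3.11.15 for summaries. The fit was tested on simulated data.

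The members and the companion lists were chosen with earlier results of these data known. Genes named were all rRNA and protein members, each tRNA gene past the FDR limit, the most abundant tRNA gene, and from each companion list up to 3 genes with the lowest FDR past the limit or, where none was past it, the 2 most abundant. mt-Tp, Gm10222, Myc, Primpol, Pax6 and the other LEC and leukocyte markers not past the FDR limit were named after their values were seen. A lens fiber cell result that the rule would name is not reported here. The least abundant tRNA gene could not be named, as 12 genes shared a count of 0. Symbols were at hand for 7023 of the 55421 genes, from the study's supplementary tables, which lean towards changed genes. Coordinates are those of RefSeq on GRCm38. Replicates were separate pools. Alternatives were other tools, scalings and filters, a block for the replicate number and leaving out each library.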

Additional observations from a re-analysis of the deposited data

How the results depend on the processing

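For the log2 fold changes of 53 of the named genes, 763 values under alternatives kept their direction and side of the FDR limit, 81 lost the limit, 38 passed it and 18 changed sign. Members past the FDR limit numbered 6 with library size scaling and 2 relative to the summed mitochondrial protein genes (10 in the report), and DEGs among them 5 with DESeq2 and 0 with either of those scalings (3 in the report). Nuclear respiratory chain and ATP synthase genes past the limit numbered 1 without robust estimation or with DESeq2 size factors, 4 with library size and 14 relative to the mitochondrial protein genes (2 in the report), and genes of mitochondrial gene expression 10 on that last scale (3 in the report). The protein gene share ratio was 1.47 over gene counts outside the mitochondrial genome and 1.33 over all read pairs. Relative to the protein genes the sign changed for mt-Nd1 (-0.11), mt-Nd2 (-0.067), mt-Nd4 (-0.025), mt-Nd5 (-0.0014), mt-Nd6 (-0.0018), mt-Cytb (-0.055), mt-Tp (-0.13), Polg2 (-0.17), Kdr (-0.060), Sag (-0.18) and Gm10222 (-0.74), as that scaling by its construction sets the summed protein genes to no change. Gm10222 was also -0.26 with library size, and with 1 library left out it ran from -0.66 (without 6 h replicate 1) to 0.37. Likewise Cox4i1 ran from -0.28 to 0.15 and Cox7a2 from -0.50 to 0.082, both highest without 6 h replicate 1, and Crygb from -3.73 (without 6 h replicate 3) to 0.29. The cause of the other differences was not tested.

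Leaving out each library in turn gave 553 to 877 DEGs over all genes (900 in the report, lowest without 0 h replicate 1), 4 to 9 members past the limit (lowest without 0 h replicate 1), 2 members as DEGs in every fit, 0 to 1 nuclear respiratory chain genes and 1 to 3 genes of mitochondrial gene expression. Leaving out a library moved the rRNA share ratio from 1.95 to 1.85 to 2.02 and the protein gene share ratio to 1.38 to 1.43.

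Same-numbered libraries were not shown to be paired, as their deviations from the group means correlated at 0.0037, 0.223 and 0.139, and the first 6 h library correlated best with the third 0 h library. With the replicate number as a block, 10 members were past the limit, 3 were DEGs, 1050 genes were DEGs, and 1 nuclear respiratory chain gene was past the limit (Ndufc1, FDR = 0.0556, was not). Of the other named genes, Pde6b passed the limit (FDR = 0.0121), and Gm10222 was then -0.11. The alternative without genes that have a near-identical nuclear copy was not run, as no reference sequence was used here. The tRNA genes and 6 of the protein genes had few counts, so changes in them were hard to detect.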
